A study of Homo sapiens with 8 samples.

Results

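The WIPI proteins and the core genes of autophagy were followed by 10 named genes: WDR45B, WDR45, WIPI1, WIPI2, ATG2A, ATG2B, ULK1, BECN1, SQSTM1 and MAP1LC3B. Members were taken as every probe set (the group of oligonucleotides that reports 1 transcript on the array) whose gene name is 1 of these, which gave 11 of the 21214 probe sets tested, with ATG2B measured by a pair of them. 1 further probe set carries the names of MAP1LC3B and MAP1LC3B2 together and is given apart. The list was chosen by gene name, but it was proposed with results of these arrays known, and the low WDR45B values at day 2 are the only member values past the threshold of the test, so they are given as a description and nothing is rested on them. RNA came from T47D, an established luminal breast carcinoma line infected with lentivirus. The 4 groups, with 2 arrays each, were the EglN2 shRNA line at day 2 (48 h of doxycycline at 1 ug/ml), the EglN2 shRNA line at day 0 (no doxycycline), the Scr control hairpin line at day 2 (the same 48 h) and the Scr line at day 0. The hairpins are conditional on doxycycline, so each line at day 0 is its own uninduced state, and the labels do not say whether a line is 1 clone or a pool. EGLN2, the target of the hairpin, encodes an oxygen-dependent prolyl hydroxylase.

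Autophagy delivers cytoplasm to the lysosome inside a newly made double membrane. The ULK1 kinase complex starts the process, and a lipid kinase complex built on Beclin 1 (BECN1) then makes phosphatidylinositol 3-phosphate on the forming membrane. WIPI proteins, which are beta-propellers, bind that lipid and recruit the next factors. ATG2 proteins form a bridge along which lipid flows into the membrane. LC3B (from MAP1LC3B) is attached to the membrane, and the receptor p62 (from SQSTM1) tethers cargo to it and is itself degraded. Much of this is controlled on proteins, so transcript levels do not measure autophagic activity.

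Values are RMA levels on the log2 scale, so a difference of 1 is a doubling, and a level is compared only between arrays for the same probe set. EGLN2, measured by a probe set shared with the RAB4B-EGLN2 read-through, read 8.26 and 8.29 in the EglN2 line at day 2, against 8.85 and 9.04 in that line at day 0, and 8.81 and 8.90 in the Scr line at day 2, against 8.97 and 9.0 at day 0. Its change was -0.67 (SE 0.11, limma adjusted p = 0.134) in the EglN2 line and -0.13 (SE 0.11) in the Scr line. Replicate arrays correlated at 0.992 to 0.996 over the tested probe sets. All 10 luminal markers averaged between 7.92 (TFF1) and 14.10 (KRT18) over the 8 arrays. The 10 markers of leukocytes, endothelium, fibroblasts and basal epithelium averaged between 4.24 (PTPRC) and 8.68 (COL1A1). Whether the replicates are separate cultures is not in the labels, so every p-value rests on a spread between arrays that may be technical.

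WDR45B, which encodes WIPI3, was the member that varied most. It read 9.99 and 10.26 in the EglN2 line at day 2, against 10.86 and 10.92 in the EglN2 line at day 0. The Scr arrays were at 10.96 and 11.15 (day 2) and at 11.11 and 10.98 (day 0). Both EglN2 day 2 arrays were below all 6 others, and the gap between them and the next array was 0.60. In order of group means the levels were 10.13 ± 0.19 (EglN2 day 2), 10.89 ± 0.04 (EglN2 day 0), 11.05 ± 0.09 (Scr day 0) and 11.06 ± 0.13 (Scr day 2) (SD, n = 2 each). The last pair of groups overlapped. The EglN2 day 0 arrays lay just below both Scr groups, by 0.04 at the closest, which is less than the spread within either Scr group.

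At day 2 the EglN2 line read 0.93 lower than the Scr line in WDR45B (log2 difference -0.93, SE 0.13), or 52.5% of the Scr level. Within the EglN2 line the difference of day 2 from day 0 was -0.77 (SE 0.13), or 58.8% of the day 0 level. These comparisons hold the arrays that singled WDR45B out, so their sizes are a description and no interval or p-value is read from them. The Scr line's own change was 0.01 (SE 0.13). It does not hold the EglN2 day 2 arrays, but it holds the Scr day 2 arrays that these were compared with. Its size is thus also given as a description. The lines at day 0 differed by -0.16 (SE 0.13, 95% confidence interval -0.44 to 0.13, limma adjusted p = 0.633). In bulk RNA, less WDR45B transcript per cell and fewer cells that hold it cannot be told apart. EGLN2 was lower on the same pair of arrays, and its part in the WDR45B values was not tested. The arrays hold no further EglN2 hairpin, so lower EGLN2 and other effects of this hairpin line cannot be told apart.

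**Figure D1:**
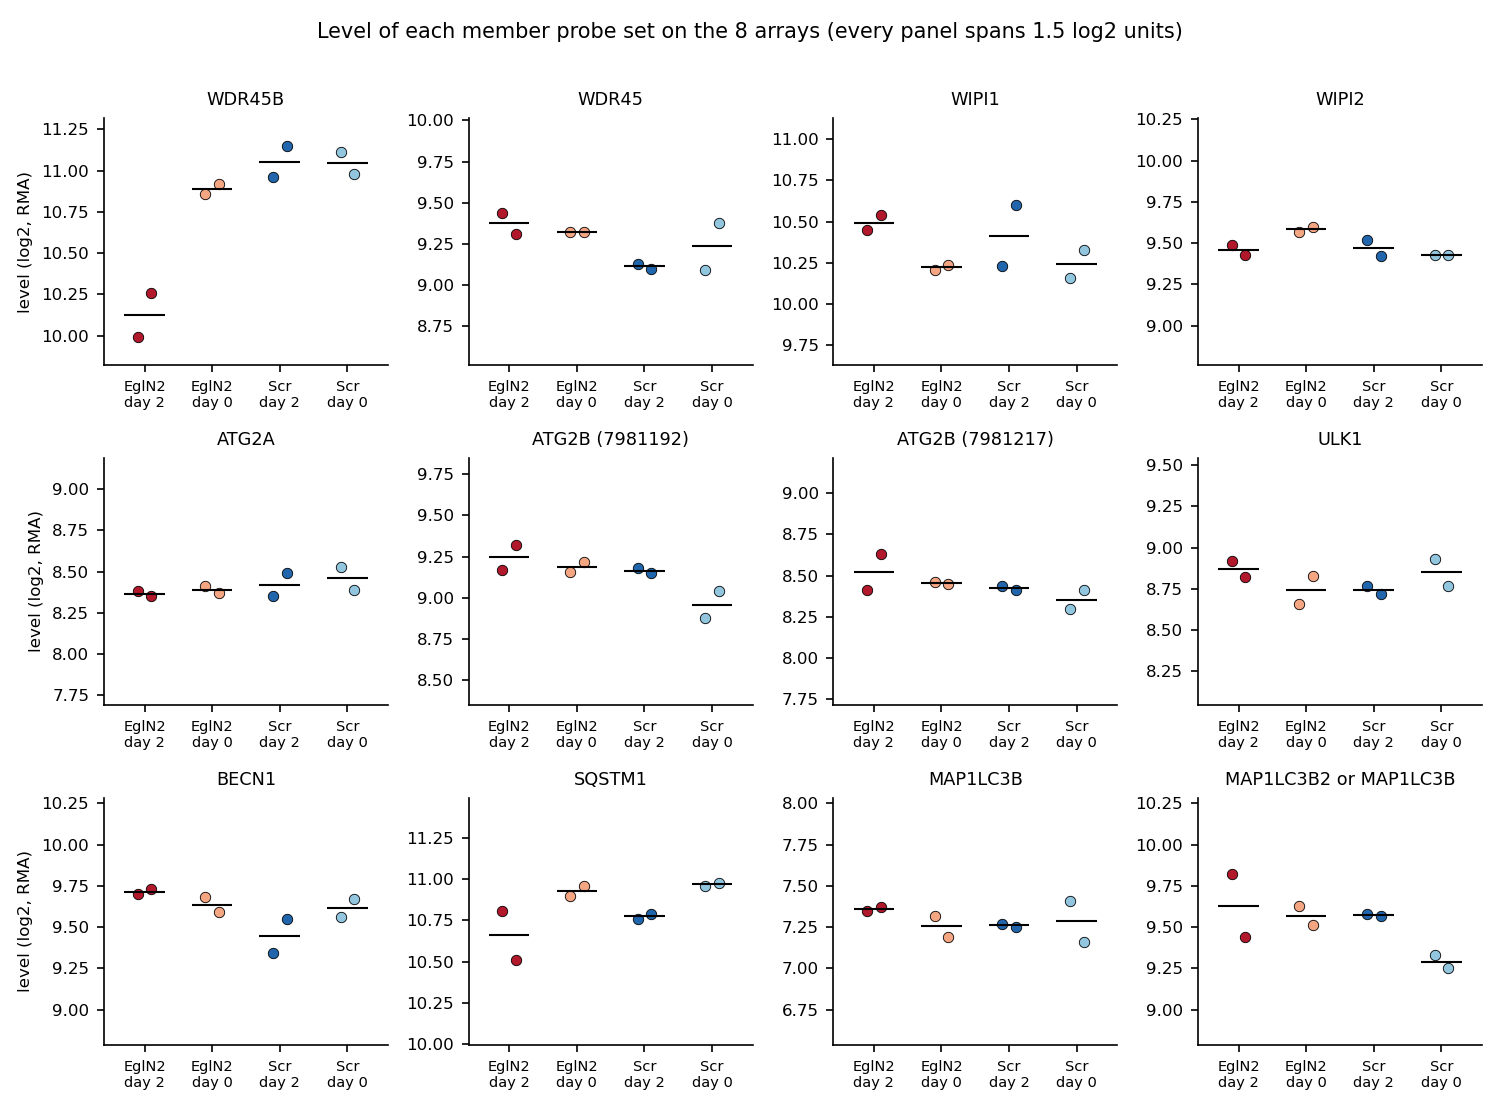
Level (log2, RMA) of each of the 11 member probe sets and of the probe set shared by MAP1LC3B2 and MAP1LC3B on the 8 arrays; points are arrays, bars are group means, and every panel spans the same log2 range. WDR45B stands low on both EglN2 day 2 arrays (9.99 and 10.26, against 10.86 to 11.15 on the others), while the group means of the other member probe sets lie within 0.31 of each other.

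In none of the other WIPI genes was an EglN2 day 2 array the lowest of the 8. In WIPI2 that held only narrowly (9.43, against 9.42 in the Scr line at day 2). WDR45, which encodes WIPI4, the ATG2-binding relative whose gene is mutated in a human neurodegeneration with brain iron accumulation, read 9.44 and 9.31 in the EglN2 line at day 2 and 9.32 on both arrays at day 0, against 9.13 and 9.10 in the Scr line at day 2 and 9.09 and 9.38 at day 0. At day 2 the EglN2 line was above the Scr line on every array, by 0.26 (SE 0.12, interval -0.01 to 0.53), which did not pass over all probe sets (limma adjusted p = 0.980). WIPI2, which recruits the machinery that lipidates LC3, read 9.49 and 9.43 in the EglN2 line at day 2, 9.57 and 9.60 at day 0, 9.52 and 9.42 in the Scr line at day 2, and 9.43 on both of its day 0 arrays. Its group means spanned 0.16, and its day 2 difference between the lines was -0.01 (SE 0.10, interval -0.23 to 0.21). In the EglN2 line both WIPI2 day 2 arrays were below both day 0 arrays, with a change of -0.13 (SE 0.10, limma adjusted p = 0.966). Groups did not overlap there in 30.7% of all probe sets. The WIPI2 difference of changes was -0.17 (SE 0.14, limma adjusted p = 0.782), also without overlap (20.8% of all probe sets).

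WIPI1, whose product forms puncta on forming autophagosomes, read 10.45 and 10.54 in the EglN2 line at day 2, against 10.21 and 10.24 at day 0. The Scr arrays were at 10.23 and 10.60 (day 2), against 10.16 and 10.33 (day 0). The EglN2 groups did not overlap and the Scr groups did. Of all probe sets, 30.7% (EglN2 line) and 47.8% (Scr line) did not overlap. The change was 0.27 (SE 0.13, interval -0.03 to 0.57) in the EglN2 line and 0.17 (SE 0.13, interval -0.13 to 0.47) in the Scr line. The difference of these changes was 0.10 (SE 0.19, limma adjusted p = 0.906). Over both lines the change was 0.22 (SE 0.10, limma adjusted p = 0.455). The Scr value rests on 1 array: without Scr day 2 replicate 2 it was -0.02, and without Scr day 2 replicate 1 it was 0.36.

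WIPI1 and SQSTM1 had the smallest p among the members other than WDR45B for the difference of day 2 from day 0 over both lines, with opposite signs. The promoter of each is shown for that reason. That of MAP1LC3B, which the reason does not cover, is shown beside them, and it alone among the 9 member promoters matched the antioxidant element named below. Each runs 5′ to 3′ from 250 bases before to 50 after the gene's start (RefSeq, GRCh38.p14): WIPI1 at chr17:68457447-68457746, minus strand, SQSTM1 at chr5:179806143-179806442, plus strand, and MAP1LC3B at chr16:87392086-87392385, plus strand. Capitals mark GC boxes (GGGCGG) on either strand and, in MAP1LC3B, the letters TGACNNNGC of the antioxidant element bound by NRF2.
WIPI1: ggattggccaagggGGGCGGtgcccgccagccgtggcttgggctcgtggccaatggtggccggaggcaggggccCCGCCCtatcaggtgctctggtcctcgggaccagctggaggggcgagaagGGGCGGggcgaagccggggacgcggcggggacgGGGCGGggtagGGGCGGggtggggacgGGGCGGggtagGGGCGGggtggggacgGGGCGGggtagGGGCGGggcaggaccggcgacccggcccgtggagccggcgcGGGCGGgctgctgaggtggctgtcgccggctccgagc
SQSTM1: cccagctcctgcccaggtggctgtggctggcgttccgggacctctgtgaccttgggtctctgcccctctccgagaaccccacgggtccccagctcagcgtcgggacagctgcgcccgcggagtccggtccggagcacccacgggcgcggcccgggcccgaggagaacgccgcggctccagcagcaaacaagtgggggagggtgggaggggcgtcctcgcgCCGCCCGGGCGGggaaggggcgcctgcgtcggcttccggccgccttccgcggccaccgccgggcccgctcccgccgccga
MAP1LC3B: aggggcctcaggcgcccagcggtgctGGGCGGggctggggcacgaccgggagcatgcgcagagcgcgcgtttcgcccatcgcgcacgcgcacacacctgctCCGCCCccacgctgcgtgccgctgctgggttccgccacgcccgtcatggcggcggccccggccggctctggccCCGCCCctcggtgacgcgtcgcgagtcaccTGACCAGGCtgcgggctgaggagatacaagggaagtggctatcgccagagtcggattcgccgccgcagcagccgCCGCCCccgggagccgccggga
WIPI1 holds 10 GC boxes in this window, several in a repeat just before the start, SQSTM1 holds 2, side by side on opposite strands, and MAP1LC3B holds 4. Of the 9 members with a promoter sequence at hand, 8 hold at least 1, against 44.6% of 27305 promoters of the same length. These 8 promoters were 64.7% to 79.7% G and C, and that of BECN1, without a GC box, was 58.0%. The 27305 promoters were not matched for G and C content, so the shares are not read as an enrichment. WDR45B is the member without such a sequence, so the promoter counts given here do not cover it. On either strand, the E-box CACGTG bound by the lysosome regulator TFEB was in 0 of 9 (7.43% of all promoters), the ATF4-type TGATGNAA in 0 of 9 (3.67%) and the HIF core ACGTG, which lies within CACGTG, in 0 of 9 (21.6%). TGACNNNGC was in 1 of 9 (13.6%), MAP1LC3B, 46 bases before the start. These are letter matches only.

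The lipid-transfer genes differed little between groups. ATG2A read between 8.35 and 8.53 on all 8 arrays, and its differences between groups lay within their intervals of 0, for example -0.03 (SE 0.11, interval -0.26 to 0.21) for day 2 against day 0 in the EglN2 line. ATG2B has a pair of probe sets. The brighter (7981192) read 9.17 and 9.32 in the EglN2 line at day 2, 9.16 and 9.22 at day 0, 9.18 and 9.15 in the Scr line at day 2, and 8.88 and 9.04 in the Scr line at day 0. The Scr day 0 arrays were thus below all others, with a Scr line change of 0.21 (SE 0.11, interval -0.04 to 0.45, limma adjusted p = 0.444) and a difference between the lines at day 0 of 0.23 (SE 0.11, limma adjusted p = 0.488). The dimmer ATG2B probe set (7981217) read 8.30 and 8.41 at Scr day 0 and 8.41 to 8.63 on the other 6 arrays, so that it had the same sign in both comparisons at a smaller size (0.07 and 0.10, SE 0.11 each).

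Of the genes that start the process, ULK1 read 8.92 and 8.82 in the EglN2 line at day 2, against 8.66 and 8.83 at day 0, and 8.77 and 8.72 in the Scr line at day 2, against 8.93 and 8.77 at day 0. Its differences of day 2 from day 0 were 0.13 (SE 0.11) in the EglN2 line and -0.11 (SE 0.11) in the Scr line, with overlapping groups in both. BECN1 read 9.70 and 9.73 in the EglN2 line at day 2, against 9.68 and 9.59 at day 0. The Scr arrays were at 9.34 and 9.55 (day 2), against 9.56 and 9.67 (day 0). Neither pair overlapped, which held for 30.7% (EglN2 line) and 47.8% (Scr line) of all probe sets. The signs were opposite: 0.08 (SE 0.11) in the EglN2 line and -0.17 (SE 0.11) in the Scr line. The difference of these changes was 0.25 (SE 0.16, interval -0.10 to 0.60, limma adjusted p = 0.722). At day 2 the lines differed by 0.27 in BECN1 (SE 0.11, interval 0.02 to 0.52), the largest such value among the 10 member probe sets other than WDR45B, and it did not pass over all probe sets (limma adjusted p = 0.926).

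SQSTM1 read 10.81 and 10.51 in the EglN2 line at day 2, against 10.90 and 10.96 at day 0, and 10.76 and 10.79 in the Scr line at day 2, against 10.96 and 10.98 at day 0. All 4 day 2 arrays were below all 4 day 0 arrays, and it was the only member of which that held. Over all probe sets, 5.09% had no overlap between the days over both lines, in either direction. The change was -0.27 (SE 0.12, interval -0.53 to -0.01) in the EglN2 line and -0.20 (SE 0.12, interval -0.46 to 0.07) in the Scr line. Over both lines it was -0.23 (SE 0.08, limma adjusted p = 0.389), a level 85.1% of that at day 0. Without EglN2 day 2 replicate 2, the lowest array, the EglN2 line's change was -0.12, and without replicate 1 it was -0.42. The lines differed little in SQSTM1 at either day (-0.12 at day 2 and -0.04 at day 0, SE 0.12 each).

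MAP1LC3B's own probe set (7997740) read 7.35 and 7.37 in the EglN2 line at day 2, 7.32 and 7.19 at day 0, 7.27 and 7.25 in the Scr line at day 2, and 7.41 and 7.16 at day 0. Its changes were 0.11 (SE 0.11) in the EglN2 line and -0.03 (SE 0.11) in the Scr line. The probe set that also carries the name of its near-identical copy MAP1LC3B2 read 9.82 and 9.44 in the EglN2 line at day 2, 9.63 and 9.51 at day 0, 9.58 and 9.57 in the Scr line at day 2, and 9.33 and 9.25 at day 0. On it the Scr line's change was 0.29 (SE 0.13, interval -0.01 to 0.58, limma adjusted p = 0.402), while the EglN2 line's was 0.06 (SE 0.13). The difference between the probe sets was not tested, and the shared one cannot tell the transcripts apart.

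Over the 10 member probe sets other than WDR45B, limma with adjustment over all 21214 probe sets called 0 between the lines at day 2 (background 0.0754%), 0 in the EglN2 line's change (background 0.00943%), 0 in the Scr line's change (background 0%), 0 in the difference of the changes (background 0%) and 0 between the lines at day 0 (background 0%). It also called 0 of the 10 between the lines over both days (background 0.033%) and 0 between the days over both lines (background 0.141%). WDR45B was 1 of the 16 probe sets past the threshold between the lines at day 2. It was chosen with that result known, so its place there describes the choice and nothing is read from it. It was no longer past the threshold without any 1 of 7 arrays, with differences of -1.03 to -0.80. Without EglN2 day 2 replicate 2 it stayed past it, at -1.07.

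At an unadjusted p under 0.05 there was 1 of these 10 in the EglN2 line's change, SQSTM1 (background 5.77%), 0 in the Scr line's change (12.9%), 0 in the difference of changes (7.12%) and 1 between the lines at day 2, BECN1 (5.19%). There were 0 between the lines at day 0 (10.4%), 0 between the lines over both days (8.07%), and 2 between the days over both lines, SQSTM1 and WIPI1 (10.7%). Groups did not overlap for 5 of the 10 in the EglN2 line's change (background 30.7%), 3 in the Scr line's change (47.8%), 2 in the difference of changes (20.8%), 4 between the lines at day 2 (30.4%) and 3 between the lines at day 0 (45%). With 4 arrays against 4, it was 0 between the lines over both days (3.51%) and 1 between the days over both lines, SQSTM1 (5.09%).

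The differences of the same 10 probe sets ran from -0.27 to 0.27 in the EglN2 line's change, from -0.20 to 0.21 in the Scr line's change, from -0.12 to 0.27 between the lines at day 2 and from -0.11 to 0.23 between the lines at day 0. The median size without sign was 0.09 for these 10 and 0.09 for all probe sets in the EglN2 line's change, and 0.11 and 0.13 in the Scr line's change. It was 0.14 and 0.15 in the difference of changes, 0.10 and 0.09 between the lines at day 2, and 0.08 and 0.13 between the lines at day 0. Over both days it was 0.08 and 0.08 between the lines, and over both lines 0.04 and 0.08 between the days. Over all 11 the median with sign was 0.06 in the EglN2 line's change and -0.03 in the Scr line's change. The smallest limma adjusted p among the 10 over the 7 comparisons was 0.389, that of SQSTM1 over both lines. The 7 comparisons share arrays, so their values for a member are not independent of each other.

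**Figure D2:**
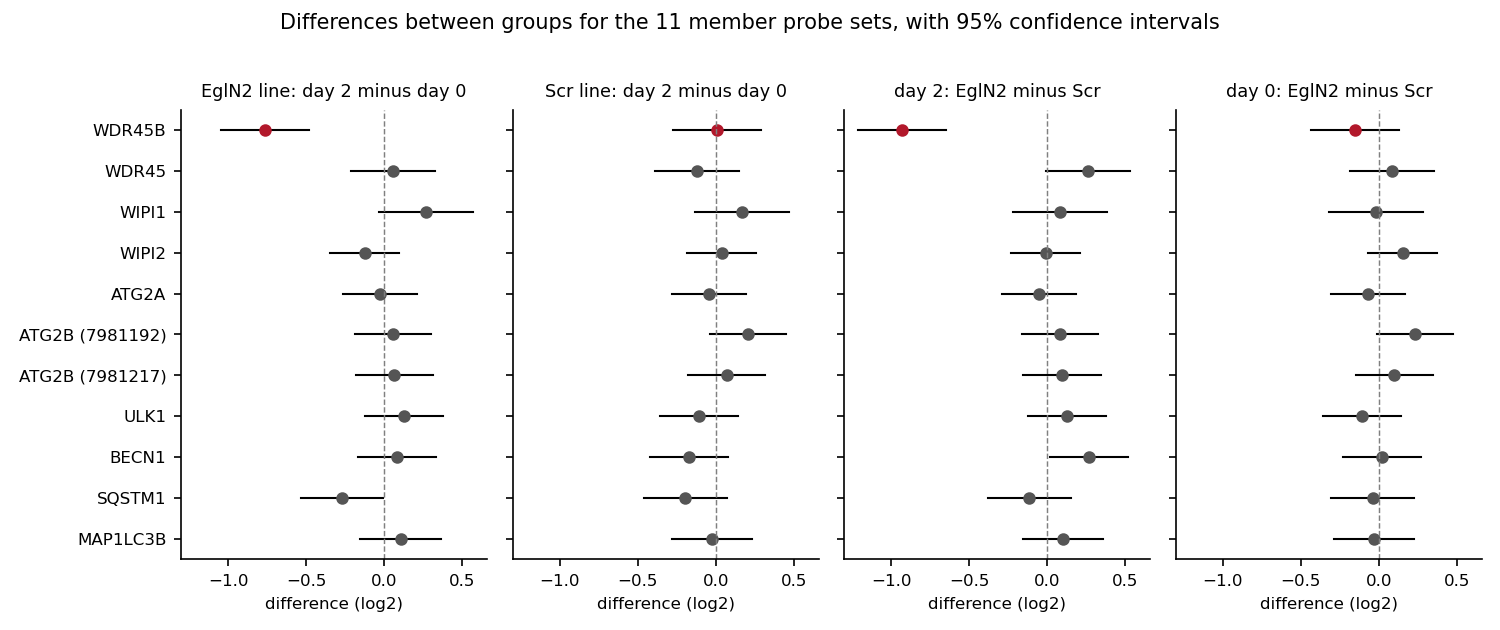
Log2 differences (points) with 95% confidence intervals (lines) for the 11 member probe sets in 4 comparisons: day 2 minus day 0 in the EglN2 line and in the Scr line, and EglN2 minus Scr line at day 2 and at day 0. WDR45B (red) lies at -0.77 and -0.93 in the comparisons that hold the EglN2 day 2 arrays and at 0.01 and -0.16 in the others. Its intervals in the former pair hold the arrays that singled it out and are not read as tests. Its interval for the Scr line's change holds the Scr day 2 arrays of the called comparison and is not read as a test either. The intervals of all other members but SQSTM1 (EglN2 line) and BECN1 (day 2) include 0.

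The genes whose levels followed WDR45B most closely over the 8 arrays were EXOSC7 (a subunit of the RNA exosome), OSBPL2 (an oxysterol-binding protein) and PPM1G (a protein phosphatase). They were found among 19460 single-gene probe sets by the root mean square difference of values centred on their own mean, which was 0.06, 0.10 and 0.11 on the log2 scale, against a spread of 0.39 in WDR45B itself. EXOSC7 read 8.24 and 8.40 in the EglN2 line at day 2, against 9.01 and 8.99 at day 0, and 9.22 and 9.37 in the Scr line at day 2, against 9.25 and 9.19 at day 0. As in WDR45B, the EglN2 day 2 replicate 1 array was the lower of its pair in all 3 genes. The EglN2 day 0 arrays stood below the Scr arrays in EXOSC7 and in PPM1G (10.69 against 10.70 at the closest), and overlapped them in OSBPL2. These genes were picked for the likeness, so it is given as a description. For SQSTM1, the member with the next largest range of group means (0.31), the closest were OVOL1, GUCA2A and the transcript MGC34796, at 0.04 to 0.05 against a spread of 0.15 in SQSTM1.

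**Figure D3:**
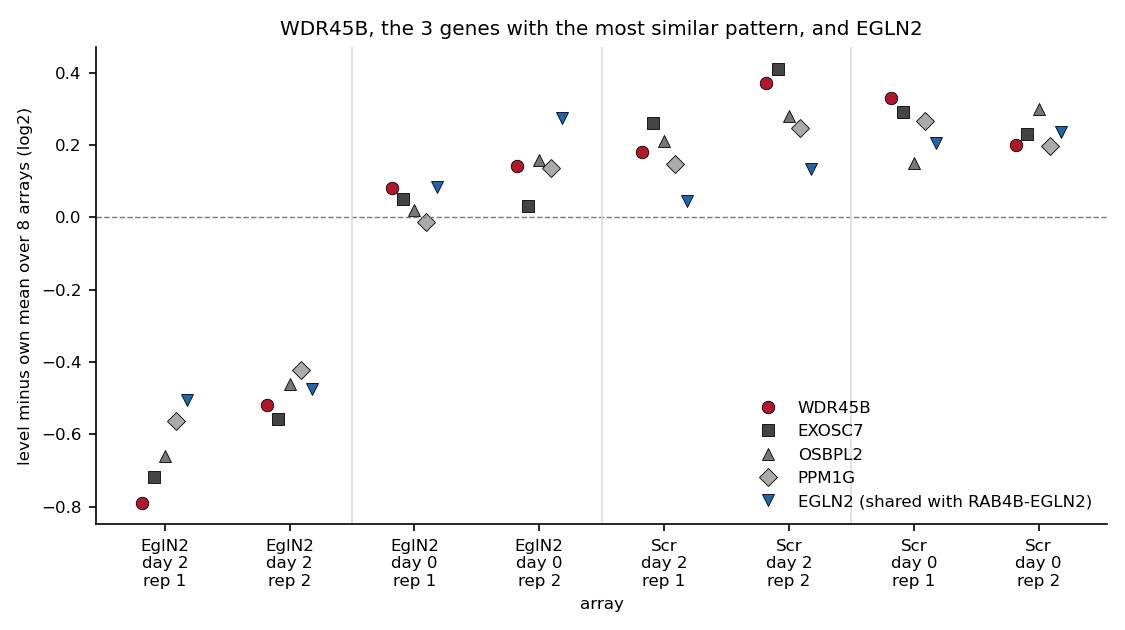
Level minus the probe set's own mean over the 8 arrays (log2) for WDR45B, its 3 closest genes EXOSC7, OSBPL2 and PPM1G, and EGLN2, with 1 column per array. All 5 are lowest on both EglN2 day 2 arrays, and the other 6 arrays lie together above them.

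The genes beside WDR45B on chromosome 17 were not called, which also held for nearly all probe sets tested. Of the 5 nearest genes with a probe set of their own on each side by RefSeq order, 0 of 10 were called between the lines at day 2 (limma, background 0.0754%). Their differences ran from -0.25 (RAB40B) to 0.49 (NARF), with a median of 0.06. In the EglN2 line's change they ran from -0.35 (ZNF750) to 0.20 (FN3K), again with 0 of 10 called (background 0.00943%). At such shares these counts do not set the neighbours apart from other genes. The adjoining FOXK2 and RAB40B differed between the lines at day 2 by 0.23 (SE 0.10) and -0.25 (SE 0.14). The neighbours were looked up after the WDR45B values were seen.

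The rest of the autophagy pathway was described by 3 lists of 73 genes in all, of which 69 had a probe set of their own. Limma called 0 of 69 higher and 0 lower in each of the 7 comparisons, where between 0% and 0.141% of all probe sets were called. At an unadjusted p under 0.05 there were 1 of 69 in the EglN2 line's change (1.45%, against 5.77% of all probe sets), 9 in the Scr line's change (13.0%, against 12.9%), 4 between the lines at day 2 (5.80%, against 5.19%) and 9 between the lines at day 0 (13.0%, against 10.4%). There was 1 in the difference of changes (1.45%, against 7.12%), with 11 between the lines over both days (15.9%, against 8.07%) and 9 between the days over both lines (13.0%, against 10.7%). The median change over the 69 was 0.03 in the EglN2 line and 0.09 in the Scr line, against 0.01 and -0.01 over all probe sets. Between the lines 46 of 69 had a positive difference at day 2 and 52 of 69 at day 0, with medians of 0.06 and 0.11. Of all probe sets, 50.8% and 50.4% were positive there. Positive changes numbered 40 of 69 in the EglN2 line (51.1% of all probe sets) and 47 in the Scr line (47.7%). In the difference of changes 28 of 69 were positive (51%). Over both days 52 were positive between the lines (49.5%), and over both lines 46 between the days (48%). The Scr day 0 arrays enter both the day 0 difference and the Scr line's change. All genes share the same arrays, so these counts are not of independent values.

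Among 16 genes of initiation, the lipid kinase and its membrane partners, the median change was 0.02 in the EglN2 line and 0.10 in the Scr line. Over both lines the lipid kinase subunit ATG14 read 8.62 and 8.84 (EglN2 day 2), 8.41 and 8.55 (EglN2 day 0), 8.86 and 8.80 (Scr day 2) and 8.43 and 8.58 (Scr day 0). Its day 2 arrays were above its day 0 arrays, by 0.29 (SE 0.08), and it did not pass (limma adjusted p = 0.277). VMP1, a membrane protein that works with ATG2, had a difference of changes of -0.36 (SE 0.17, limma adjusted p = 0.702), with Scr day 0 replicate 1 at 11.88 and the other 7 arrays at 12.22 to 12.39.

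Among 24 genes of LC3 conjugation and cargo receptors the median was 0.06 in the EglN2 line and 0.09 in the Scr line. ATG4C, a protease that processes LC3-family proteins, read 7.87 and 8.06 in the EglN2 line at day 2, 8.17 and 8.09 at day 0, 8.25 and 8.02 in the Scr line at day 2, and 7.28 and 7.72 at Scr day 0. Its Scr line change was 0.64 (SE 0.16, limma adjusted p = 0.253) and its difference of changes -0.80 (SE 0.22, limma adjusted p = 0.658). Its difference between the lines at day 0 was 0.63 (SE 0.16, limma adjusted p = 0.455). The low Scr day 0 arrays enter all of these values. The ATG4C change of -0.17 (SE 0.16) in the EglN2 line also enters the difference of changes. The mitophagy receptor BNIP3L read 10.08 and 9.93 (EglN2 day 2), 9.69 and 9.85 (EglN2 day 0), 9.75 and 9.82 (Scr day 2) and 9.31 and 9.46 (Scr day 0). It was 0.32 higher at day 2 than at day 0 over both lines (SE 0.08, limma adjusted p = 0.215). Over both days it was 0.30 higher in the EglN2 line than in the Scr line (SE 0.08, limma adjusted p = 0.404). The Scr day 0 arrays, which enter both values, were the lowest for BNIP3L. Its relative BNIP3 had a change of 0.28 in the EglN2 line (SE 0.10, limma adjusted p = 0.768).

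Among 29 measured genes of fusion, the lysosome and TFEB the median was 0.02 in the EglN2 line and 0.06 in the Scr line. STX17, a syntaxin of autophagosome fusion, had a change of 0.25 in the EglN2 line (SE 0.11, limma adjusted p = 0.868). VPS41, a tethering subunit, read 10.97 and 11.04 in the EglN2 line at day 2 and 11.14 and 11.09 at day 0, against 10.60 and 10.63 in the Scr line at day 2 and 10.84 and 11.05 at day 0. The lines differed in it by 0.39 at day 2 (SE 0.11, limma adjusted p = 0.506). The lysosomal chloride transporter CLCN7 differed by 0.34 at day 2 (SE 0.11, limma adjusted p = 0.650).

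**Figure D4:**
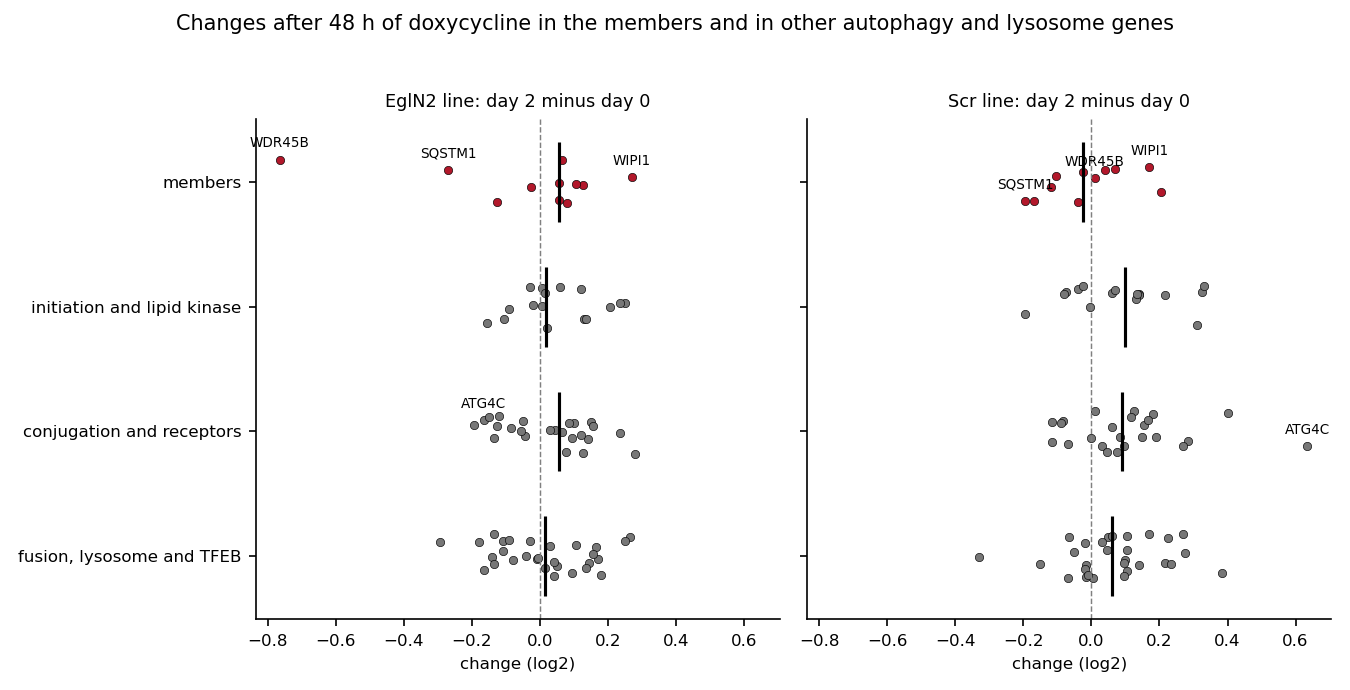
Log2 change of day 2 from day 0 in the EglN2 line (left) and the Scr line (right) for the 11 member probe sets and for 16, 24 and 29 other autophagy and lysosome genes; each point is 1 probe set, the height within a row has no meaning, and thick bars are medians. WDR45B at -0.77 lies apart in the EglN2 line, and ATG4C at 0.64 in the Scr line; no median is beyond 0.10.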

How the data were processed

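RNA of 8 samples was measured on arrays, in 4 groups of 2 taken from the sample titles. The authors deposited a log2 level for each probe set. The submitters' processing notes name RMA and Affymetrix Expression Console, with no version. RMA subtracts a modelled background, makes arrays share 1 distribution and combines probes into sets. Differences of weakly expressed genes come out smaller than they are. The number of arrays limits the precision; signal over background was not analysed here. The annotation of the array's 33297 probe sets gave 1 gene for 19460, several for 1754 and none for 12083. Symbols of single-gene sets were renewed from RefSeq by gene ID (19429 matched), and the 21214 named probe sets were tested as deposited. Group means were fitted with limma 3.58.1 in R 4.3.3 (4 residual and 5.53 prior degrees of freedom) for 7 two-sided contrasts, with Benjamini-Hochberg adjustment and a threshold of 0.05. With 2 arrays against 2, the smallest p of an exact permutation test is 0.333, and that test was not used. List genes used their brightest single-name probe set. The fit was tested on simulated data.

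Members and lists were chosen with earlier results of these data known. The text names all members and EGLN2. Of the lists it names genes past the threshold or, with none, the 2 with the smallest p in each comparison. It also names the 3 closest patterns to the 2 most variable members. No build is named for the array, so only the promoters have coordinates. Alternatives tried are given in the closing section.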

Additional observations from a re-analysis of the deposited data

Results flagged for a closer look

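BECN1 was picked out because its values moved in opposite directions in the 2 lines on every array: the change of day 2 from day 0 was 0.08 in the EglN2 line and -0.17 in the Scr line. Over all probe sets, groups did not overlap in 30.7% for the EglN2 line's change and in 47.8% for the Scr line's change. The share with opposite directions was not counted, so the flag does not set BECN1 apart from other genes. The difference of the changes was 0.25 (SE 0.16), with a limma adjusted p = 0.722, so it did not pass when tested directly. Groups of 2 arrays were not examined for outlying samples.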

How the results depend on the processing

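Each comparison was recomputed under 16 or 17 alternatives. Between the lines at day 2, the count of member probe sets called was 1 (WDR45B) as reported and in 7 of 17 alternatives. It was 0 with only the 4 arrays of the comparison in the fit, with arrays centred on their medians and with every probe set of the table tested. Leaving out 1 array at a time it ran from 0 to 1, with 0 in 7 of 8 cases; the log2 difference itself ran from -1.07 to -0.80. The cause was not tested. WDR45B was chosen with its day 2 values known, so the day 2 count describes that choice and nothing is read from it. The 6 other comparisons called 0 members under every alternative run. With the replicate number as a block the member count was also 1 between the lines at day 2 and 0 in the 6 others. Over all probe sets the block gave more calls: 13 against 2 in the EglN2 line's change, 42 against 0 in the Scr line's change, 32 against 16 between the lines at day 2, 18 against 7 between the lines over both days and 150 against 30 between the days. Deviations of same-numbered arrays correlated at 0.10 to 0.27 between groups, and the labels say only that the numbers are shared. Over all alternatives these counts ran from 0 to those values, and from 0 to 2 in the difference of changes. Of 1276 recomputed member differences, 50 moved by more than the spread between replicates and 10 lost the WDR45B call.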
